A study of Mus musculus with 6 samples.

Results

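The 8 gamma-crystallin genes of the mouse, Cryga, Crygb, Crygc, Crygd, Cryge, Crygf, Crygs and Crygn, were taken by name from a table of 13024 genes measured by RNA-Seq in E14.5 lenses, and all 8 were found in it. The study asked how loss of the transcription factor Gata3 alters the transcriptome of the differentiating lens. It compared 3 pools of Gata3 conditional knockout (CKO) lenses with 3 pools of control lenses, each pool holding 10 lenses taken from 5 embryos of mixed C57BL/6 and FVB background. CKO embryos were homozygous for a Gata3 allele floxed around exon 4 and carried a Pax6-Cre transgene, which is active in the ectoderm that forms lens and cornea. Control embryos had no Cre, and they are given as wild type in the sample labels, as heterozygous floxed in one part of the paper and as homozygous floxed in another, so their genotype is uncertain, and an effect of Cre cannot be told apart from one of Gata3 loss.

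Gamma-crystallins are small, very stable, monomeric proteins of the beta/gamma superfamily that fill lens fibre cells at high concentration and give the lens its refractive power. Their genes are switched on as posterior lens cells leave the cell cycle and elongate into primary fibres, later than the alpha-crystallins. Cryga to Crygf encode the classical gamma A to gamma F proteins and lie together on one chromosome, whereas Crygs encodes gamma S, which accumulates mainly in the later, secondary fibres, and Crygn encodes gamma N, a member with features of both the beta and the gamma branch.

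The paralogs were located in the GRCm38 (mm10) assembly with GENCODE M21. Cryge (chromosome 1, 65048554–65051149), Crygd (65061872–65063452), Crygc (65071525–65073689), Crygb (65080219–65082288) and Cryga (65100389–65103373) follow one another on the reverse strand within 54.8 kb. Crygf (chromosome 1, 65926520–65928307) lies on the forward strand, 823 kb beyond the end of Cryga. Crygs is on chromosome 16 (22805203–22811577, reverse strand) and Crygn on chromosome 5 (24751003–24758008, reverse strand). The transcripts used for the 7 members other than Crygn have 3 exons each and that of Crygn has 4, and the coding lengths run from 522 bases in Cryga, Crygd, Cryge and Crygf to 549 in Crygn.

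The 6 linked genes are close copies, which matters for how fragments are assigned to them. The first 60 coding bases are printed from the GENCODE transcripts, with capitals where a base differs from Cryge.
Cryge: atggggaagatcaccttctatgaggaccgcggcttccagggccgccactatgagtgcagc
Crygf: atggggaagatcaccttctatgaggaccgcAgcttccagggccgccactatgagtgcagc
Crygd: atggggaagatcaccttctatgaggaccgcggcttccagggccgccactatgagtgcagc
Crygc: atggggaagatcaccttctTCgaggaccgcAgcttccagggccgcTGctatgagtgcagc
Crygb: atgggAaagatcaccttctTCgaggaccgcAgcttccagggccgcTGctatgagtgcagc
Cryga: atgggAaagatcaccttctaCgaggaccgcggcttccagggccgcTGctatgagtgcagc

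Over the whole coding sequence, Cryge and Crygf were the closest pair, with 98.1% identity and 10 of 522 bases different, followed by Crygd and Cryge with 91.6%. The remaining linked pairs ranged from 78.9% for Crygc and Crygf to 90.6% for Crygd and Crygf. Crygs and Crygn shared at most 59.8% with any other member. The longest run without a difference between Cryge and Crygf was 134 bases. The 60-base stretch that separates them best, coding bases 409 to 468, holds 4 differences, shown here in capitals because fragments over it can be assigned to one gene or the other.
Cryge: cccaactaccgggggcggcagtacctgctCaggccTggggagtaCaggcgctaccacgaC
Crygf: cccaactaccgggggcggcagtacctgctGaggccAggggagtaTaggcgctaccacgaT

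Of the 50-base windows of the Cryge transcript, 57.0% also occur in the transcript of another member, and the shares were 34.9% for Crygf, 34.0% for Crygd, 31.3% for Crygc, 29.4% for Crygb, 5.73% for Cryga and 0% for Crygs and Crygn. With windows of 100 bases the shares were 27.1% for Cryge, 11.9% for Crygf, 15.8% for Crygd, 23.8% for Crygc and 22.8% for Crygb. The read length is not given in the sources used here, and neither is the way HTSeq treated fragments that align to several genes. Such fragments may have been left uncounted, or each assigned to one of the close paralogs. The counts of the linked genes are therefore uncertain. Cryge had the largest share of such windows at both lengths, and Cryge and Crygf were the closest pair in coding sequence. Primers used in the study for quantitative PCR show the same similarity at the scale of 20 bases. The forward primer for Cryga matches 6 of the 8 transcripts without a mismatch, and its reverse primer matches Cryga alone, with 4 or more mismatches in each other member.
Cryga forward: TACCAGCAGTGGATGGGTTT
Cryga reverse: GCCCCGGTAGTCATCTCTCT
Crygb forward: GACTCCATTCGTTCCTGCTG
Crygb reverse: GAAGTGGAAGCGATCCTGAA

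Both Crygb primers match Crygb alone, with at least 3 mismatches elsewhere for the forward and at least 2 for the reverse primer.

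Promoters were read from RefSeq for GRCm38.p6 as 250 bases before to 50 after each start site, and all 8 members were matched. The 100 bases before the start are printed for Crygf and Crygb, whose levels differed most between the groups, and for Cryge and Crygd as the nearest copies of Crygf. They are chr1:65926422-65926521 (forward strand), chr1:65082291-65082390, chr1:65051164-65051263 and chr1:65063441-65063540 (reverse strand). Capitals mark TATATA and TTTGTG, the latter one of the longest runs common to all 6 linked promoters.
Crygf: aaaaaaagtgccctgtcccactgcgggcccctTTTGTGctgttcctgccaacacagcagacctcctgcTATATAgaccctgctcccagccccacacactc
Crygb: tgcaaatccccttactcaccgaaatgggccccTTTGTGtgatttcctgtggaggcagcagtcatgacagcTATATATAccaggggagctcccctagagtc
Cryge: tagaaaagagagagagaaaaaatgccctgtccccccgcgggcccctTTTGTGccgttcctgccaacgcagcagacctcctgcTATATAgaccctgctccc
Crygd: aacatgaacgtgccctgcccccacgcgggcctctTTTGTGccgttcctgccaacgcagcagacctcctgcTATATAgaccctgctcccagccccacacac

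TTTGTG was present in the 6 linked promoters, where it began 54 to 77 bases before the start, and in 17.7% of 32851 RefSeq promoters of the same length. TATATA, searched after the sequences had been seen, was present in 7 of the 8 members and 5.67% of all promoters, and Crygs held TATAAA instead, found in 13.6%. The run CCTCCTGCTATATAGACC, shared by Crygc, Crygd, Cryge and Crygf, occurred in those 4 promoters and no other of the table. All motifs were searched on both strands, and TATATA reads the same on each.

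GATA, the core of sites that GATA factors bind, was found in the promoters of 5 of the 8 members and in 57.9% of all promoters. These were Cryga, Crygc, Cryge, Crygf and Crygn, while Crygb and Crygd, next to Crygf in size of difference, and Crygs held none. The longer AGATAA, which contains GATA, was found in 1 of the 8 members, Crygf, 158 bases before its start. It was found in 11.2% of all promoters, a like share. The same place in Cryge reads AGAGAA, and the 60-base stretches around it, chr1:65926337-65926396 (forward strand) for Crygf and chr1:65051275-65051334 (reverse strand) for Cryge, are printed with these letters in capitals and differ at 2 bases in all.
Crygf: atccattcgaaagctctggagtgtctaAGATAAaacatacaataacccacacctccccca
Cryge: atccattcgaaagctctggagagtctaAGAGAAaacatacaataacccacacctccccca

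TGCTGA, part of the sites that large Maf proteins bind, was found in Cryga, Crygc, Crygs and Crygn, and in 19.5% of all promoters. These matches describe the printed letters and no binding was measured in these libraries.

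Libraries held 15157230 to 18811104 counts of fragments on genes. The targeted gene, Gata3, had 12.8, 27.2 and 8.71 CPM (counts relative to library size, after TMM scaling) in the control pools, always listed as replicates 1, 2 and 3. It had 59.0, 54.1 and 46.5 CPM in the pools labelled CKO, so the transcript was more abundant, not less, under the CKO label. The deposited counts are per gene and do not show exon 4, so the deletion could not be checked from them, exon-level reads were not analysed here, and the groups are called by their labels. Control replicate 2 stood apart, with a summed gamma-crystallin level of 48637 CPM against 22550.4 and 15489 in the other control pools. In a pool of whole lenses, fewer fibre cells and less crystallin RNA per fibre cell cannot be told apart. Summed marker levels are given for every list below, and their part in the results was not tested.

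All 8 members passed the filter of at least 10 counts in at least 3 libraries. Their summed level was 7300 to 11286 CPM in the libraries labelled CKO, below the lowest control pool. All 8 log2 fold changes of CKO against control were below 0, although that of Crygs turned above 0 without control replicate 2 and when scaled to other crystallins or fibre genes, with a median of -1.59 (-0.93 without control replicate 2), where the median of all 12879 genes tested was 0.00. In 7 of the 8 members, Crygs being the exception, every CKO value lay below every control value, against 4.69% of all genes tested. None of the 8 reached an adjusted p-value of 0.05 in edgeR's quasi-likelihood test, in which 0% of all genes did. At an unadjusted p-value under 0.05, 7 of 8 members were lower, against 2.24% of all genes. DESeq2's Wald test, run as an alternative, called Crygf, Crygb and Cryga lower at an adjusted p-value under 0.05, against 0.435% of all genes. The members and this contrast were chosen with earlier results of these data known, so these counts describe the family and are no independent test of it.

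**Figure D1:**
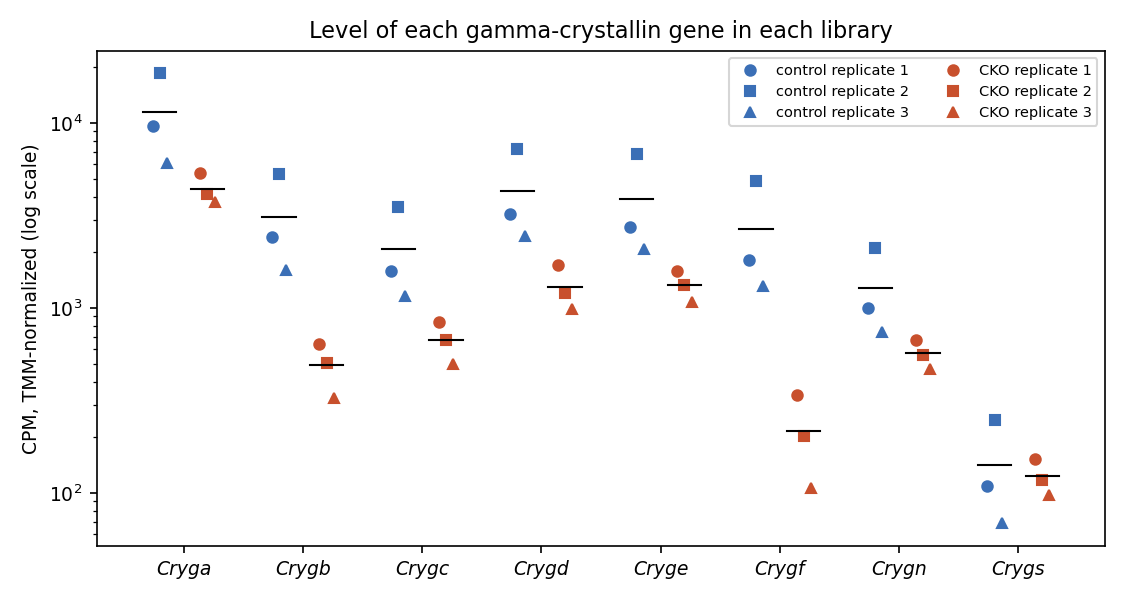
TMM-normalized CPM (log axis) of each gamma-crystallin gene in the 3 control and 3 CKO libraries, with a horizontal line at each group mean. Control replicate 2 is the highest library for each of the 8 genes, the groups are apart for the 7 genes other than Crygs, and the widest gap is that of Crygf (1309 CPM in the lowest control and 337 in the highest CKO library).

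Crygf, which encodes gamma F, differed most. It had 28817, 68601 and 23436 counts in control, or 1826, 4834 and 1309 CPM. In the libraries labelled CKO it had 5198, 3971 and 2039 counts, or 337, 202 and 106 CPM. The lowest control value was 3.88 times the highest CKO value, and the CKO mean was 8.09% of the control mean. The log2 fold change, CKO against control, was -3.63 (standard error, SE, 0.65, with a 95% interval of -5.20 to -2.06, adjusted p = 0.486 from edgeR and 0.000473 from DESeq2). Omitting single libraries gave values from -4.11 to -2.86, the latter without control replicate 2.

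Crygb, which encodes gamma B, was next. Control pools held 2414, 5321 and 1602 CPM, and the CKO pools 635, 507 and 327. The groups were separated by a factor of 2.52 between the lowest control and the highest CKO value, and the log2 fold change came to -2.67 (SE 0.50, with a 95% interval of -3.86 to -1.48, adjusted p = 0.486 from edgeR and 0.00148 from DESeq2). Without control replicate 2 it was -2.03.

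Crygd and Crygc, which encode gamma D and gamma C, had like profiles. Crygd had 3231, 7218 and 2452 CPM in control and 1715, 1199 and 986 in CKO, which gave -1.73 on the log2 scale (edgeR SE 0.44 and adjusted p = 0.823). Crygc had 1582, 3534 and 1158 CPM in control and 843, 673 and 496 in CKO, which gave -1.64 (edgeR SE 0.44 and adjusted p = 0.853). Neither group pair overlapped, but the lowest control value was only 1.43 times the highest CKO value for Crygd and 1.37 times for Crygc. Without control replicate 2 the log2 fold changes were -1.12 and -1.02, so that this 1 library moved both by over 1.5 times. Over the 6 libraries the centred log2 CPM of these genes differed by a root mean square of 0.0786, the smallest value among the 28 pairs of members.

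Cryge, which encodes gamma E, had 2754, 6793 and 2079 CPM in control and 1584, 1336 and 1080.2 in CKO. Although its coding sequence is nearly that of Crygf, its log2 fold change was -1.54 (SE 0.45, with a 95% interval of -2.63 to -0.45, adjusted p = 0.989 from edgeR), close to those of Crygc and Crygd. It was -0.85 without control replicate 2. With the counts of Cryge and Crygf summed and fitted as 1 gene, a value that no split of fragments between them can alter, the log2 fold change was -2.08. Fragments left uncounted, or assigned to Crygd or Cryga, with which both share 50-base windows, could still alter it.

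Cryga, which encodes gamma A, had the highest counts of the family. It had 9634, 18567 and 6082 CPM in control and 5345, 4115 and 3738 in CKO, and the difference was -1.38 on the log2 scale (SE 0.41, with a 95% interval of -2.37 to -0.39, adjusted p = 0.989 from edgeR and 0.0209 from DESeq2). The lowest control value was only 1.14 times the highest CKO value, and without control replicate 2 the log2 fold change was -0.83.

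Crygn, which encodes gamma N, had 1000.1, 2122 and 738 CPM in control and 675, 559 and 469 in CKO. The log2 scale difference was -1.18 (SE 0.39, with a 95% interval of -2.12 to -0.24, adjusted p = 0.9998 from edgeR), and -0.61 without control replicate 2. The groups did not overlap, by a margin of 1.09 between the lowest control and the highest CKO value.

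Crygs, which encodes gamma S, stood apart from the rest of the family. It had 109, 248 and 68.6 CPM in control and 152, 118 and 98.1 in CKO, so that the CKO values lay within the control range. The fitted log2 value of -0.21 (SE 0.46, with a 95% interval of -1.30 to 0.88, adjusted p = 0.9998 from edgeR) became 0.48 without control replicate 2, when all 3 CKO values were above or between the remaining control values. The interval is wide enough to hold the value of Crygn, so no difference from control was detectable in either direction.

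**Figure D2:**
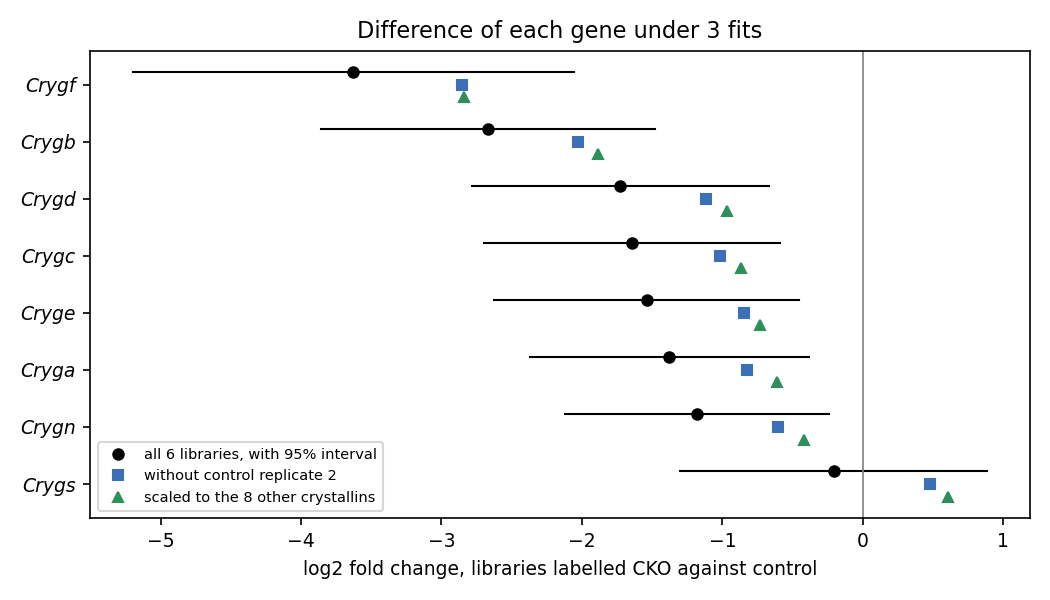
Log2 fold change of each gene in the libraries labelled CKO against control, from edgeR with all 6 libraries (black circles, with 95% intervals), without control replicate 2 (blue squares) and with library sizes set to the summed counts of the 8 other crystallins (green triangles). The order of the genes is the same in the 3 fits, from Crygf (-3.63, -2.86 and -2.84) to Crygs (-0.21, 0.48 and 0.60), and the size depends on the fit.

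The order from the steepest to the least difference was Crygf, Crygb, Crygd, Crygc, Cryge, Cryga, Crygn and Crygs. It was the same in each of the 14 alternative fits that gave a value for every member, which include each library left out in turn. These fits share most of their libraries, so they are not separate evidence.

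Levels of different genes were compared as CPM per kilobase of transcript. The whole transcript was used, although 57.0% of the 50-base windows of Cryge are shared, against 5.73% for Cryga and 0% for Crygs and Crygn. If fragments from shared stretches went uncounted, the close copies are set too low, so the order between genes is uncertain. In control pools the order was Cryga (18285 ± 10293, SD, n = 3), Crygd (7015 ± 4170.3), Cryge (6142 ± 4039.8), Crygb (4909 ± 3084), Crygf (4237 ± 3036), Crygc (3417 ± 2071), Crygn (1675 ± 957) and Crygs (162 ± 108). Each neighbouring pair stood in this order in 3 of 3 control libraries, though the ranges over pools overlapped for all neighbours but Crygn and Crygs. In the libraries labelled CKO the order was Cryga (7039 ± 1345), Crygd (2121 ± 611), Cryge (2113 ± 399.5), Crygc (1096 ± 283), Crygb (772 ± 244), Crygn (739 ± 135), Crygf (343 ± 185) and Crygs (140.3 ± 31.3). Crygd and Cryge could not be ordered there, since Crygd was higher in 1 of 3 libraries, and Crygb was above Crygn in 2 of 3. On this scale, Crygf thus stood above Crygc and Crygn in every control library and below both in every CKO library. Crygb stood above Crygc in every control library and below it in every CKO library.

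**Figure D3:**
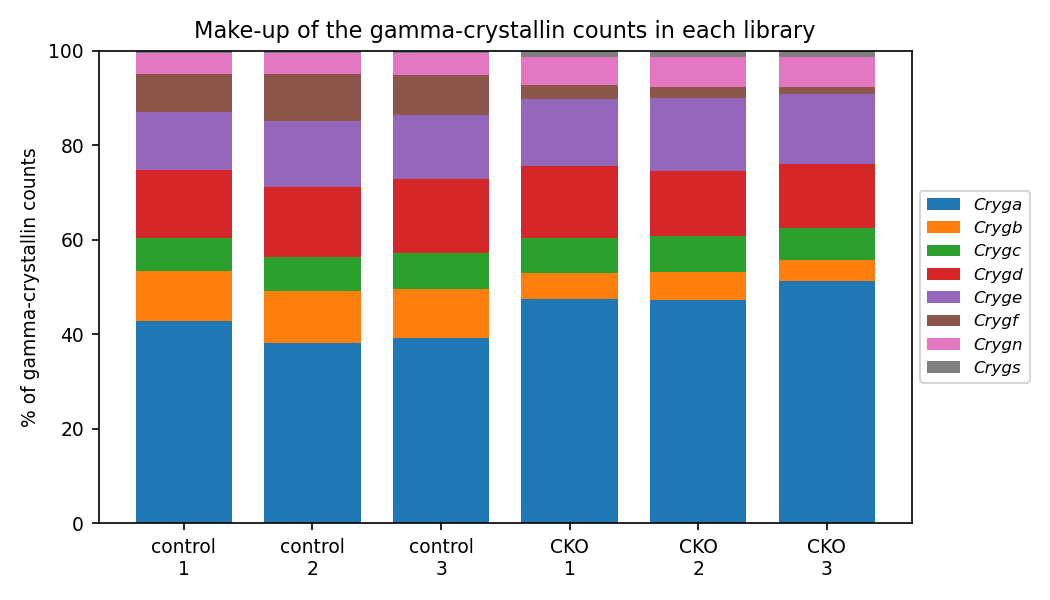
Share of the summed gamma-crystallin counts (%) taken by each of the 8 genes in each library, as stacked bars that add up to 100%. The Crygf and Crygb segments are narrower in each CKO bar than in each control bar.

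The make-up of the family was then compared within libraries, as the percent of all gamma-crystallin counts that each gene took, a measure that does not depend on library size. Control replicate 2 was still the control pool with the largest share for Crygf, Crygb, Cryge and Crygs and the smallest for Cryga and Crygn. Crygf took 8.10%, 9.94% and 8.45% of the family's counts in control and 2.99%, 2.32% and 1.45% in CKO, or 8.83 ± 0.98% against 2.25 ± 0.77% (SD, n = 3). Crygb took 10.7%, 10.9% and 10.3% in control and 5.62%, 5.82% and 4.47% in CKO. Counting error is small beside these differences, with 95% Wilson intervals of at most 0.262 percentage points to either side over the 48 shares, which cover counting error only.

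Crygs took 0.482%, 0.511% and 0.443% in control and 1.35%, 1.35% and 1.34% in CKO, so its share was 2.82 times as large. Crygn took 4.52 ± 0.22% in control and 6.27 ± 0.25% in CKO, Cryga 40.1 ± 2.4% and 48.6 ± 2.2%, and Cryge 13.2 ± 0.90% and 14.7 ± 0.65%, each with every CKO value above every control value. Crygc (7.25 ± 0.23% and 7.33 ± 0.48%) and Crygd (15.0 ± 0.76% and 14.2 ± 0.91%) had overlapping groups. For the 6 genes whose groups did not overlap, the exact two-sided permutation test gave p = 0.1, the smallest that 3 pools against 3 allow, and 0.133 after Benjamini-Hochberg adjustment over the 8 genes. For Crygd it gave 0.3 and for Crygc 0.9. Shares add up to 100%, so a smaller share of Crygf and Crygb by itself enlarges the shares of the other genes.

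Ratios between 2 members avoid that dependence. Against Cryge, its nearest copy, Crygf had 66.3, 71.2 and 63.0 counts per 100 in control and 21.3, 15.1 and 9.82 in CKO. That ratio also depends on how fragments shared by Cryge and Crygf were assigned or left uncounted. Against Cryga, Crygb had 25.1, 28.7 and 26.3 counts per 100 in control and 11.9, 12.3 and 8.74 in CKO, and Crygs had 1.13, 1.34 and 1.13 in control and 2.85, 2.87 and 2.62 in CKO. Each of these 3 ratios differed between the groups by more than its spread within them. Crygc had 49.0, 49.0 and 47.2 counts per 100 Crygd in control and 49.1, 56.1 and 50.3 in CKO, and Crygn had 10.4, 11.4 and 12.1 per 100 Cryga in control and 12.6, 13.6 and 12.5 in CKO, both higher in every CKO library by narrow margins. Cryge had 85.2, 94.1 and 84.8 counts per 100 Crygd in control and 92.4, 111 and 109.5 in CKO, with overlapping groups. These pairs were picked after the values had been seen, and no test was run on them.

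To set the family against other crystallin RNA of the same library, its counts were also divided by the summed counts of 8 genes. These were the other crystallins, alpha and beta, and the scaling was added after seeing the data. The family had 31.9, 34.6 and 31.8 counts per 100 counts of these genes in control, and 18.8, 18.0 and 16.3 in CKO. Control replicate 2 was the highest control pool on this scale too, by a narrower margin than in CPM. Relative to 12 lens fibre genes for filament, channel, membrane and other fibre proteins, the family had 2.09, 2.16 and 2.03 counts per count in control and 1.06, 1.07 and 1.02 in CKO. All 12 also had log2 fold changes below 0 and were chosen with earlier results known, so they are no fixed standard.

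Crygf had 29.0 ± 4.6 counts per 1000 counts of the other crystallins in control and 4.05 ± 1.62 in CKO (SD, n = 3), a ratio of 7.16. Crygb had 34.9 ± 2.6 and 9.44 ± 1.87, a ratio of 3.70. Cryga, Crygc, Crygd, Cryge and Crygn had control-to-CKO ratios of 1.53, 1.83, 1.96, 1.66 and 1.33, each with groups that did not overlap, so that 7 of 8 members were lower in every CKO library, against 0.621% of all genes on this scale. Crygs was higher in every CKO library, 2.53, 2.44 and 2.19 against 1.54, 1.76 and 1.41, where 8.50% of all genes were. The other crystallins are no fixed standard, since 7 of the 8 also had log2 fold changes below 0. Cryaa alone averaged 40244 of their 86723 CPM in control and 27467 of 51079 in CKO. Its log2 fold change was -0.55, where the 8 genes ran from -1.37 for Cryba4 to 0.14 for Cryab. The ratios thus lean on Cryaa, and Cryga, at -1.38, was near Cryba4.

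**Figure D4:**
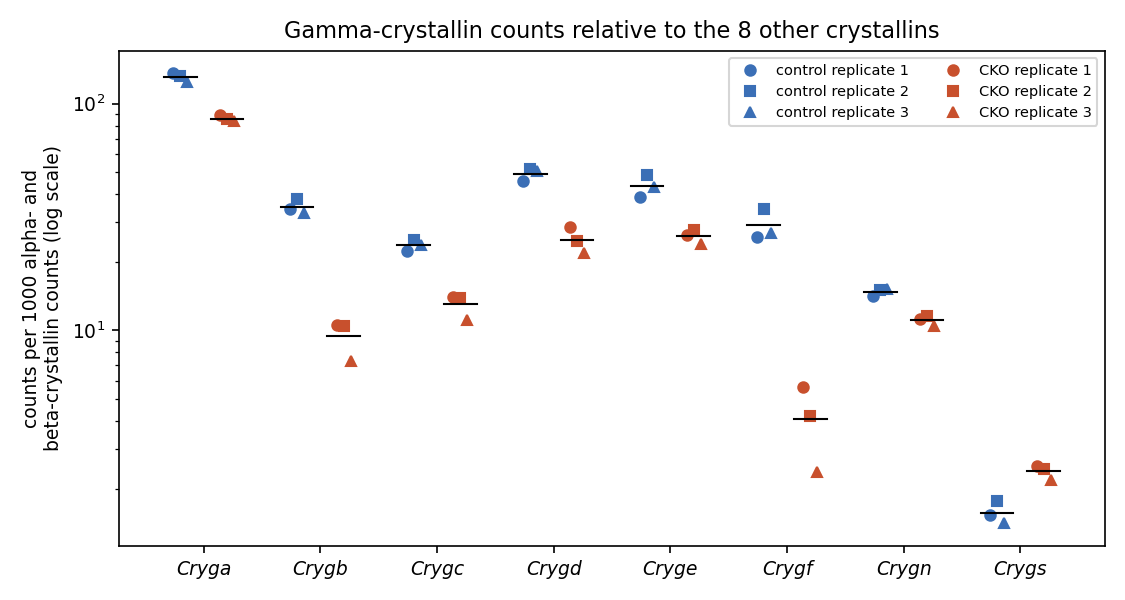
Counts of each gamma-crystallin gene per 1000 counts of the 8 alpha- and beta-crystallin genes (log axis) in each library, with a line at each group mean. Crygf (29.0 in control, 4.05 in CKO) and Crygb (34.9 and 9.44) have the widest gaps between groups, the 3 CKO libraries of Crygf are themselves spread from 2.37 to 5.60, and Crygs is the 1 gene that is higher in CKO.

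The alpha- and beta-crystallin genes encode the other structural proteins of the fibre cytoplasm. Of these 8 genes, 7 had log2 fold changes below 0, with a median of -0.88. In 3 of the 8 every CKO value lay below every control value, against 4.69% of all genes tested. The values ran from -1.37 for Cryba4, which encodes beta A4 (adjusted p = 0.989 from edgeR), to 0.14 for Cryab, which encodes the small heat shock protein alpha B. None of them was as far below 0 as the 5 gamma-crystallins Crygf, Crygb, Crygd, Crygc and Cryge. Of 5 more distant or enzyme crystallins in the table, 4 were below 0 and none had an unadjusted p-value under 0.05, with values from -0.36 for Cryl1 to 0.17 for Cryz.

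A list of 27 transcription factors and coactivators that act on crystallin genes or early lens differentiation had a median log2 fold change of -0.02, with 15 below 0 and 12 above. The lowest was Hsf4, a heat shock factor of fibre cells. It had 61.3, 129.9 and 50.8 CPM in control and 41.8, 36.2 and 31.3 in CKO, which gave -1.15 on the log2 scale (edgeR's adjusted p = 0.9998). Gata3 itself was the highest, at 1.72. Maf, which encodes the c-Maf activator of gamma-crystallin promoters, had 412, 871 and 355 CPM in control and 434, 385 and 341 in CKO. Sox1, required for gamma-crystallin expression in fibres, had 84.6, 190.4 and 78.6 CPM in control and 113, 100.2 and 96.5 in CKO. Both had overlapping groups, with log2 fold changes of -0.50 and -0.19, and both were picked for their role after the values had been seen.

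Of the 13 lens fibre genes listed, 12 were in the table, and all 12 had log2 fold changes below 0, with a median of -1.49. In 7 of them every CKO value lay below every control value, against 4.69% of all genes tested. The lowest was Dnase2b, the nuclease that degrades fibre DNA, at -4.64. Their summed level was 7630 to 22522 CPM in control and 7126 to 10602 in CKO. The median of the gamma-crystallins, -1.59, was near that of this list. The fibre genes were chosen with earlier results of these data known, so the list is no independent standard for the family.

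Markers of other cells were measured beside these results. The 6 lens epithelium genes summed to 1878 to 2085 CPM in control and 1763 to 1841 in CKO, so that these sums did not overlap either, and all 6 genes were below 0, from -0.48 for Foxe3 to -0.04 for Pax6 on the log2 scale. Retina genes (8 of 8 tested) summed to 679.9 to 1480.4 CPM in control and 1011 to 1381 in CKO, and were lowest in control replicate 2, the pool with the highest crystallins. Mesenchyme genes (6 of 6) summed to 2016 CPM in control replicate 1 and 3665 in CKO replicate 2, and to 218 to 447 in the other libraries. Pigment genes (5 of 5) were high in the same pools, at 309 and 313 CPM against 53.3 to 71.6 elsewhere. Vessel genes (5 of 5) summed to 229.8 to 286 CPM in control and 206 to 244 in CKO. Of 6 blood genes, 5 were in the table, and the blood sum was highest in control replicate 2, at 1256 CPM against 273 to 526 elsewhere. The adult globins Hba-a2, Hbb-bs and Hbb-bt were listed at 0 in every library, although the deposited genes had passed a filter on FPKM. Whether fragments shared between globin genes went uncounted was not tested. The log2 fold changes were at most 0.21, for Atoh7, in retina, and ran from -0.05 for Pdgfrb to 0.81 for Col3a1 in mesenchyme, from -0.07 for Tyrp1 to 0.29 for Mlana in pigment, from -0.99 for Hbb-y to -0.98 for Alas2 in blood and from -0.59 for Pecam1 to 0.24 for Tek in vessels. No gene of these 6 lists had an unadjusted p-value under 0.05, and their part in the family's difference was not tested.

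**Figure D5:**
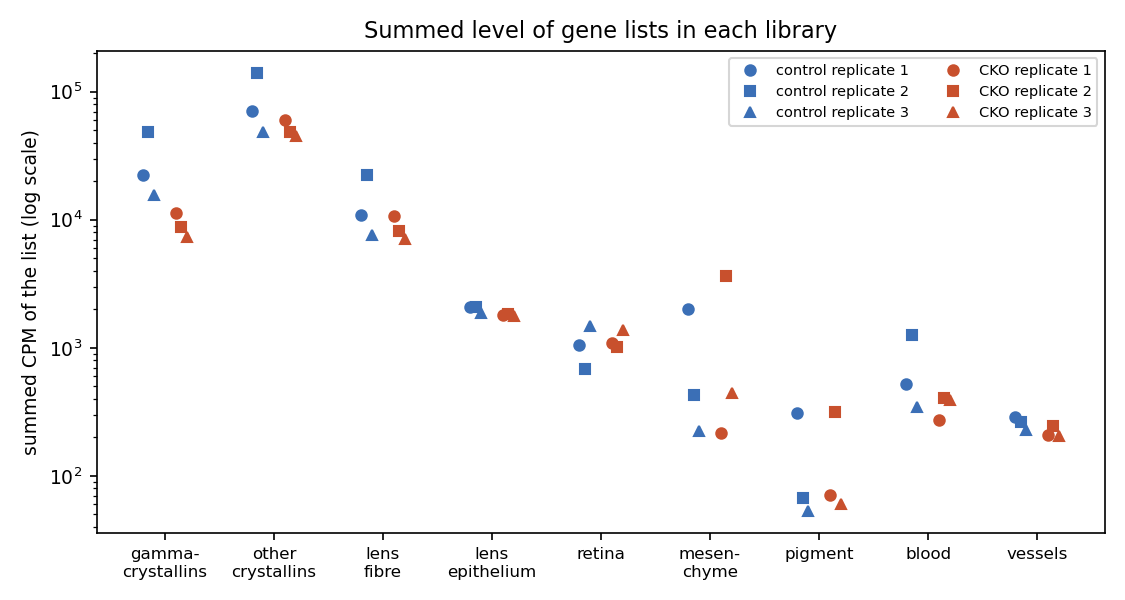
Summed CPM (log axis) of the gamma-crystallins, the other crystallins and 7 lists of marker genes in each library. The gamma-crystallin sums are apart between the groups (15489 to 48637 CPM in control, 7300 to 11286 in CKO), as are, by a narrow margin, the lens epithelium sums (1878 to 2085 and 1763 to 1841), the other crystallin and fibre sums overlap, and mesenchyme and pigment sums are high in control replicate 1 and CKO replicate 2.

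None of the measured genes beside the cluster had groups that were apart. D630023F18Rik, the next gene beyond Cryga, had 1.71, 3.81 and 1.23 CPM in control and 4.67, 3.46 and 3.12 in CKO, or 0.75 on the log2 scale (edgeR's adjusted p = 0.9998). Idh1 and Pikfyve, between Cryga and Crygf, had log2 fold changes of 0.12 and -0.02, and Map2, beyond Crygf, had one of 0.09. Each of the 4 had overlapping groups, and the other annotated neighbours were not analysed here.

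The genes most like the family were sought among 10413 other genes with a mean of at least 10 CPM, by the root mean square difference of centred log2 CPM over the 6 libraries. Nearest to the mean of the 8 members were Slc46a3 (0.101), Hfe (0.109), Ggct (0.120), Rnf113a1 (0.121) and Pla2g16 (0.1498). Single members had different nearest genes. Crygb was nearest to Lenep (0.0617), Cryga and Cryge to Cryba4 (0.0563 and 0.105) and Crygn to Cryba2 (0.0244). Crygf had no close match, its nearest gene Myo7b being at 0.335. These distances describe likeness over 6 libraries and carry no test.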

How the data were processed

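Strand-specific poly(A) libraries were sequenced as read pairs. The authors mapped the reads to mm10 with TopHat2 (2.0.13), counted fragments per RefSeq gene with HTSeq (0.6.1), and deposited raw counts for genes whose mean FPKM from Cuffdiff (2.2.1) passed 1 in either group. The submitters' processing notes also name Trim Galore and DESeq2. The strand, overlap and multiple-alignment options are not given in the sources used here. Groups and replicate numbers follow the sample titles. The paper describes the pools as distinct. Every member had at least 1229 counts in each library, so counting error was small beside the spread over the 3 pools of a group.

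Counts were scaled to CPM by TMM and tested with edgeR 4.0.16 (R 4.3.3, robust quasi-likelihood fit, Benjamini-Hochberg adjustment over the 12879 genes that reached 10 counts in 3 or more libraries). Standard errors are the log2 fold change divided by the square root of F. Shares used exact permutation tests in scipy 1.17.1. Transcript lengths and coding sequences are those of the GENCODE M21 transcript with the longest coding sequence. Windows shared with Gm28845, annotated over Cryga itself, were left out. Alternatives were RLE factors, DESeq2 1.42.0, size factors without crystallins, 2 other filters, the replicate block, each library left out, Cryge and Crygf summed, and, added after seeing the data, library sizes set to other crystallins or to fibre genes. The fit was also run on simulated counts, with means and dispersions taken from the fit of these libraries. Sequences, tables and plots were made with biopython 1.88, pandas 2.3.3 and matplotlib 3.10.9.

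Named genes are the members, the extremes of each list, the neighbours of the cluster, the nearest patterns and Gata3, of which 2 list or pattern genes are not reported here. The members and lists were chosen with earlier results of these data known.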

Additional observations from a re-analysis of the deposited data

How the results depend on the processing

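The number of genes called at an adjusted p-value under 0.05 was 0 in edgeR (457 at an unadjusted p under 0.05) and 85 in DESeq2, and 0 to 1 when single libraries were omitted, the 1 without control replicate 3. DESeq2 called Crygf (-3.62), Crygb (-2.66) and Cryga (-1.37), with log2 fold changes near those of edgeR. Crygs was the 1 member whose sign turned: its log2 fold change ranged from -0.54 to 0.48 when single libraries were omitted, above 0 without control replicate 2, 0.60 scaled to the other crystallins and 0.50 scaled to fibre genes. Crygf passed the threshold in the fits scaled to the other crystallins (-2.84) and to fibre genes (-2.96), but there edgeR assigned 51516 degrees of freedom, against 6.54 in the TMM fit, and those p-values are not used. The difference in the share of Crygc ranged from -0.12 to 0.34 percentage points when single libraries were omitted, and its sign turned without control replicate 1 (-0.042) or CKO replicate 2. Apart from these, 106 of the 114 alternative fold changes kept their direction and their side of the threshold, and 54 of the 56 alternative share differences kept their direction. No share could pass a threshold of 0.05, since the exact test allows no p below 0.1, or below 0.2 with a library omitted. With the replicate number as a block, Crygf had -3.55 and Crygb -2.53, and 0 genes were called. Same-numbered libraries deviated from their group means with correlations of -0.49, 0.09 and 0.44, and differently numbered ones with -0.48 to 0.56. These values show no pairing by number. With 3 libraries in a group they cannot decide whether same-numbered pools were prepared together. The cause of these shifts was not tested.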
